A study of Arabidopsis thaliana with 8 samples.

Results

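The comparison described here set the phyAB double mutant of Arabidopsis thaliana against the phyB single mutant under the same red light. Both are labelled as mutants in ecotype Col, and the libraries were made from total RNA of seedlings 4.5 days old. The seeds were cold-stratified (3 days), then exposed to white light (12 h) and held for another 21 h so that they germinated, on medium with 1% sucrose. They grew for 4 days in the dark at 22 °C and received 1 h of red light at a fluence rate given as 50 µmol. The libraries were taken by their titles, 2 of phyAB (phyAB red) and 2 of phyB (phyB red), which is 4 of the 8 libraries of the series. The other 4 are wild type (WT) seedlings of the same age, 2 left in darkness (WT dark) and 2 given the same red light (WT red), and they serve as a scale. The labels do not give the alleles. No mutant seedlings from darkness were analysed here, so a difference between the lines may already have been present before the light.

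Phytochromes are photoreceptors that switch between a red-absorbing and a far-red-absorbing form. Phytochrome B is light-stable and dominates red light responses of green seedlings, whereas phytochrome A accumulates in darkness, is degraded in the light and mediates the first responses of dark-grown (etiolated) seedlings. Active phytochromes inhibit the COP1/SPA ubiquitin ligase and trigger the loss of the phytochrome-interacting factors (PIFs), which releases HY5 and its relatives, chloroplast genes and the change from elongation growth to greening. The comparison therefore asks what further differs at 1 h of red light in seedlings that carry the phyA mutation in addition to the phyB mutation.

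The libraries held 15926547 and 22116924 reads (phyB red) and 21699222 and 16619502 reads (phyAB red), which spans the range of the series. Levels are given as CPM, the reads of a gene scaled to 1e6 reads of its library after a correction for composition. Where a pair of levels is set against another, the phyAB red libraries come first unless groups are named. Changes are the log2 fold change of phyAB red over phyB red ± its standard error (SE), with n = 2 libraries per group. A gene was called at an adjusted p under 0.05 (edgeR quasi-likelihood test, Benjamini-Hochberg adjustment over 20716 genes). Replicate libraries had 1.35 to 1.48 times the variance of pure counting error (a biological coefficient of variation of 1.59% overall). Nothing in the labels states that replicates came from separate cultures. The p-values thus measure only how much these libraries scatter, which may be technical scatter, and small differences pass easily.

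PHYA, the gene that the second mutation targets, was read first. Its transcript stood at 703 and 703 CPM in phyB red against 124 and 123 CPM in phyAB red, beside 834 and 828 CPM in WT dark and 463 and 471 CPM in WT red. It was 5.69-fold lower in phyAB red (log2 -2.51 ± 0.023, adjusted p = 5.3e-80). Both phyAB red libraries lay far below all 6 other libraries. PHYB transcripts were present in both mutant lines, at 62.3 and 64.3 CPM in phyB red against 52.9 and 50.4 CPM in phyAB red (log2 -0.29 ± 0.05, adjusted p = 2.71e-07). All 4 values lay below 80.7 and 81.4 CPM in WT dark and 96 and 95.2 CPM in WT red. Both loci thus gave reads in lines labelled as their mutants, and a transcript level does not show whether a protein is made. Of the other phytochrome genes, PHYC (log2 -0.20 ± 0.06) and PHYE (log2 -0.44 ± 0.092) were slightly lower in phyAB red and PHYD did not pass (adjusted p = 0.11, or 0.041 without phyAB red replicate 2).

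In all, 5389 genes were higher in phyAB red (26.0% of those tested) and 4991 lower (24.1%), or 50.1% in either direction. These shares are the scale for all counts of list members below. Most of these differences were small. The median size among called genes was 0.47 on the log2 scale, and 6304 of 10380 calls (60.7%) were under 1.5-fold. At least 2-fold differences numbered 1014 higher (4.89%) and 902 lower (4.35%), or 9.25% in all. At 4-fold or more, 270 genes were higher and 114 lower. The balance at 2-fold depended on the setting, since at a minimum count of 50 there were 656 higher and 741 lower, and a test against a 2-fold change itself called 441 higher and 495 lower. The libraries of the groups did not overlap for 72.8% of tested genes, and the median of all tested genes was 0.007.

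The genes that respond to red light in wild type were the first set to be read, because WT red against WT dark shares no library with the mutant comparison. Of 1471 genes raised at least 2-fold by red light in wild type (7.10% of tested genes), 988 (67.2%) were lower in phyAB red than in phyB red, 212 (14.4%) were higher and 271 did not pass, with a median of -0.85. Of 559 genes lowered at least 2-fold in wild type (2.70%), 342 (61.2%) were higher in phyAB red and 58 (10.4%) lower, with a median of 0.79. Genes that red light raises were thus mostly lower in the double mutant and genes that it lowers mostly higher. Seen from the other side, red-raised genes made up 605 of the 902 genes at least 2-fold lower in phyAB red (67.1%), which is 41.1% of all red-raised genes. Red-lowered genes made up 221 of the 1014 genes at least 2-fold higher (21.8%), which is 39.5% of all red-lowered genes. Among the genes at least 2-fold higher, 457 (45.1%) were not called in the wild type response, against 129 (14.3%) of those at least 2-fold lower. Of all tested genes, 53.2% were not called there, so both shares lay below that of all tested genes. Across the 20716 genes the 2 changes had a Pearson correlation of -0.40 and a Spearman correlation of -0.36, given as a description, since genes are not independent replicates.

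**Figure D1:**
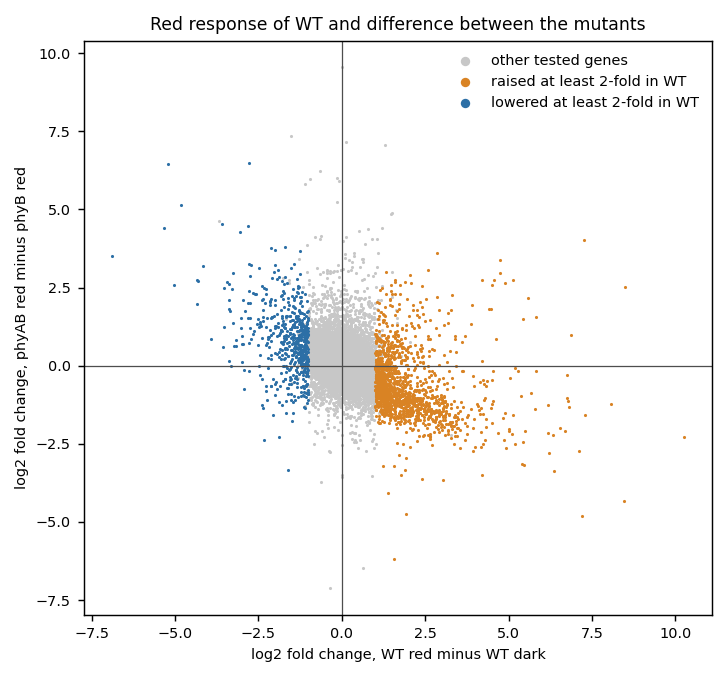
Each point is a tested gene, with the log2 fold change of WT red over WT dark on the x axis and that of phyAB red over phyB red on the y axis (2 libraries per group). Of the 1471 genes raised at least 2-fold in wild type (orange), 988 were lower in phyAB red, and of the 559 lowered at least 2-fold (blue), 342 were higher.

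Genes for the photosynthetic machinery were lower in the double mutant in every list examined. All 20 light-harvesting antenna genes were lower (median -1.59, 18 of them at least 2-fold), against 24.1% of all tested genes. All 27 nuclear genes for photosystem subunits and electron carriers were lower as well (median -1.46, 27 at least 2-fold). So were all 13 genes for Rubisco and the Calvin cycle (median -1.44, 10 at least 2-fold). Summed antenna levels were 17533 and 17567 CPM in phyB red, 5763 and 5768 CPM in phyAB red, 2011 and 2011 CPM in WT dark and 13707 and 13742 CPM in WT red. The double mutant thus sat above dark wild type and below red-treated wild type, while phyB red sat above both. In RNA of seedlings, fewer cells of a type and less RNA per cell cannot be told apart. Genes encoded in the plastid itself took 0.279% and 0.278% of reads in phyB red against 0.252% and 0.253% in phyAB red.

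LHCB1.4 (AT2G34430), an antenna protein of photosystem II, showed the steepest difference of the list, at 667 and 662 CPM in phyB red against 93.2 and 98 CPM in phyAB red (6.96-fold lower, log2 -2.80 ± 0.027, adjusted p = 2.26e-78). LHCA1, an antenna protein of photosystem I, stood at 1296 and 1322 CPM in phyB red against 251 and 249 CPM in phyAB red (log2 -2.39 ± 0.018, adjusted p = 1.26e-97). Neither gene had overlapping groups. LHCB4.3, which did not respond 2-fold to red light in wild type, was the antenna gene with the smallest difference (13.2 and 12.8 against 14.8 and 16 CPM, log2 -0.25 ± 0.10, adjusted p = 0.0348), and its call was lost with DESeq2 and without phyB red replicate 2 or either phyAB red replicate. The LHCB1 and LHCB2 genes are near-identical copies, and how the counting split their reads is not given, so values of single copies are uncertain. The 5 LHCB1 genes ranged from -2.80 ± 0.027 to -0.92 ± 0.012.

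Among photosystem genes the differences were even, from -1.97 ± 0.03 for PSAN, a small subunit of photosystem I, to -1.02 ± 0.036 for ATPD, a subunit of the chloroplast ATP synthase. RCA (Rubisco activase, which keeps Rubisco in its active state) stood at 1709 and 1719.7 CPM in phyB red against 354 and 363 CPM in phyAB red (4.79-fold lower, log2 -2.26 ± 0.016, adjusted p = 9.35e-109). CP12-2, a small linker protein of Calvin cycle enzymes, was lower by more, at 50.6 and 54.2 CPM in phyB red against 8.72 and 7.95 CPM in phyAB red (log2 -2.65 ± 0.097, adjusted p = 2.54e-46). Its relative CP12-1, which hardly responds to red light in wild type (log2 0.16), showed the smallest difference of this list (log2 -0.76 ± 0.025). The small subunit genes of Rubisco ranged from -1.65 ± 0.018 for RBCS3B to -0.94 ± 0.014 for RBCS1A, and RBCS1B, RBCS2B and RBCS3B are near-identical neighbours whose reads may not be separable.

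Sequences upstream of the annotated gene starts were taken from the RefSeq TAIR10.1 assembly, 250 bases for each of 20491 tested genes with such a window, and searched for 5 short motifs. The G-box (CACGTG) was in 7.37% of all windows, 9.6% of those of genes at least 2-fold lower and 10.5% of those at least 2-fold higher. For the evening element (AAATATCT) these shares were 4.88%, 6.14% and 5.74%, so both motifs were somewhat more frequent in either direction. GATAAG, searched on both strands and bound by GATA factors and found in many light-regulated promoters, was present in 12.3% of all windows. Among genes at least 2-fold lower in phyAB red its share was 17.2% (154 of 896), and among those at least 2-fold higher it was 102 of 1010. It occurred in 7 of 27 windows of the photosystem list (25.9%) and 4 of 20 of the antenna list (20.0%). Among other lists with mostly lower members, it was in 2 of 26 windows for chlorophyll synthesis (7.69%), 0 of 19 for HY5 and B-box factors and 2 of 16 for plastid isoprenoid and carotenoid genes (12.5%). More windows held it for Rubisco and the Calvin cycle (3 of 13, 23.1%), SAUR genes (7 of 26, 26.9%) and dark and sugar-starvation markers (5 of 8, 62.5%). In lists with mostly higher members it ranged from 1 of 23 for DNA damage (4.35%) to 2 of 6 for seed oil use (33.3%). A match is a description of letters and not evidence of a bound site. The windows of RCA (chr2:16573693-16573942, minus strand) and PSAK (chr1:10721933-10722182, plus strand), 2 strongly reduced genes of photosynthesis, are shown 5′ to 3′ with the motif in capitals, once forward and once as its reverse complement.
RCA: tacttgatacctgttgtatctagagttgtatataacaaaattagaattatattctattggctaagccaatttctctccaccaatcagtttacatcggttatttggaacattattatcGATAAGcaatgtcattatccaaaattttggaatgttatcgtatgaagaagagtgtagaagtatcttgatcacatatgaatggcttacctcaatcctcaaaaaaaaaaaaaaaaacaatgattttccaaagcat
PSAK: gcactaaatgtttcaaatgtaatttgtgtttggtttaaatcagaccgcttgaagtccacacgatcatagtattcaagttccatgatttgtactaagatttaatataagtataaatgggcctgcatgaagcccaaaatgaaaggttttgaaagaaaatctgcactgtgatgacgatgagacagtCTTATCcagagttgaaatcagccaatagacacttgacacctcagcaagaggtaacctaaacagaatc
PSAK encodes a core subunit of photosystem I and stood at 421 and 414 CPM in phyB red against 128 and 124 CPM in phyAB red (log2 -1.72 ± 0.026, adjusted p = 2.25e-62).

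Chlorophyll synthesis split into a large set that was lower and a pair that was higher in phyAB red. Of 26 genes, 20 were lower and 2 higher, with a median of -0.69. HEMA1, the first committed enzyme of tetrapyrrole synthesis, was lower (120.1 and 117 against 249 and 248 CPM, log2 -1.06 ± 0.03). GUN5, the H subunit of Mg-chelatase, was lower by a like amount (268 and 266 against 536 and 531 CPM, log2 -1.0 ± 0.02). GUN4, which activates that chelatase, was lower by more (50.7 and 53.9 against 134 and 129 CPM, log2 -1.33 ± 0.045), and so was CHLM, the methyltransferase of the next step (81.1 and 81.2 against 215 and 211 CPM, log2 -1.39 ± 0.035). The late enzyme PORC (log2 -0.15 ± 0.075, adjusted p = 0.0615) did not pass, nor did CHLP, which makes the phytyl tail (log2 0.01 ± 0.018, adjusted p = 0.682).

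The pair that was higher consisted of PORA and PORB, the protochlorophyllide oxidoreductases that accumulate in etiolated tissue. PORA stood at 16.8 and 17.2 CPM in phyB red against 381 and 379.8 CPM in phyAB red, beside 135 and 141 CPM in WT dark and 18.2 and 21.2 CPM in WT red. It was 22.3-fold higher in the double mutant (log2 4.48 ± 0.059, adjusted p = 4.13e-81), and both phyAB red libraries exceeded even dark wild type, while both phyB red libraries lay near WT red. PORB followed more weakly, at 186 and 182 CPM in phyB red against 438 and 435 CPM in phyAB red (log2 1.25 ± 0.024, adjusted p = 1.58e-54).

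Photoprotection and plastid gene regulation followed the photosynthesis genes. All 8 photoprotection genes were lower (median -1.51). ELIP2, an early light-induced protein of the thylakoid, stood at 277 and 269 CPM in phyB red against 48.3 and 48.6 CPM in phyAB red (log2 -2.49 ± 0.041, adjusted p = 6.41e-68). Its relative ELIP1 differed less (78.5 and 82.7 against 158 and 158 CPM, log2 -0.97 ± 0.04). Of 16 genes for plastid isoprenoid and carotenoid synthesis, 14 were lower and 0 higher (median -0.59). PSY, phytoene synthase, the entry step to carotenoids, was among them (72.5 and 78 against 167 and 162 CPM, log2 -1.13 ± 0.039).

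Of 10 regulators of chloroplast development, 9 were lower (median -1.03). SIG5, a sigma factor that directs the plastid RNA polymerase to light-responsive plastid promoters, was the steepest at 80.5 and 87.4 CPM in phyB red against 12.6 and 12.8 CPM in phyAB red (6.64-fold lower, log2 -2.73 ± 0.08, adjusted p = 4.12e-53). Its phyAB red values lay between WT dark (2.86 and 3.65 CPM) and WT red (50.7 and 48.4 CPM). SIG1, SIG2, SIG3, SIG4 and SIG6 were lower, at log2 -0.72 to -1.24. GLK2, a transcription factor for chloroplast genes, was lower (log2 -1.14 ± 0.058), and GLK1 less so (log2 -0.38 ± 0.12), a call that was lost without phyB red replicate 2. GNC, a GATA factor, did not pass (20.9 and 19.1 against 20.7 and 19.6 CPM, adjusted p = 0.987).

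**Figure D2:**
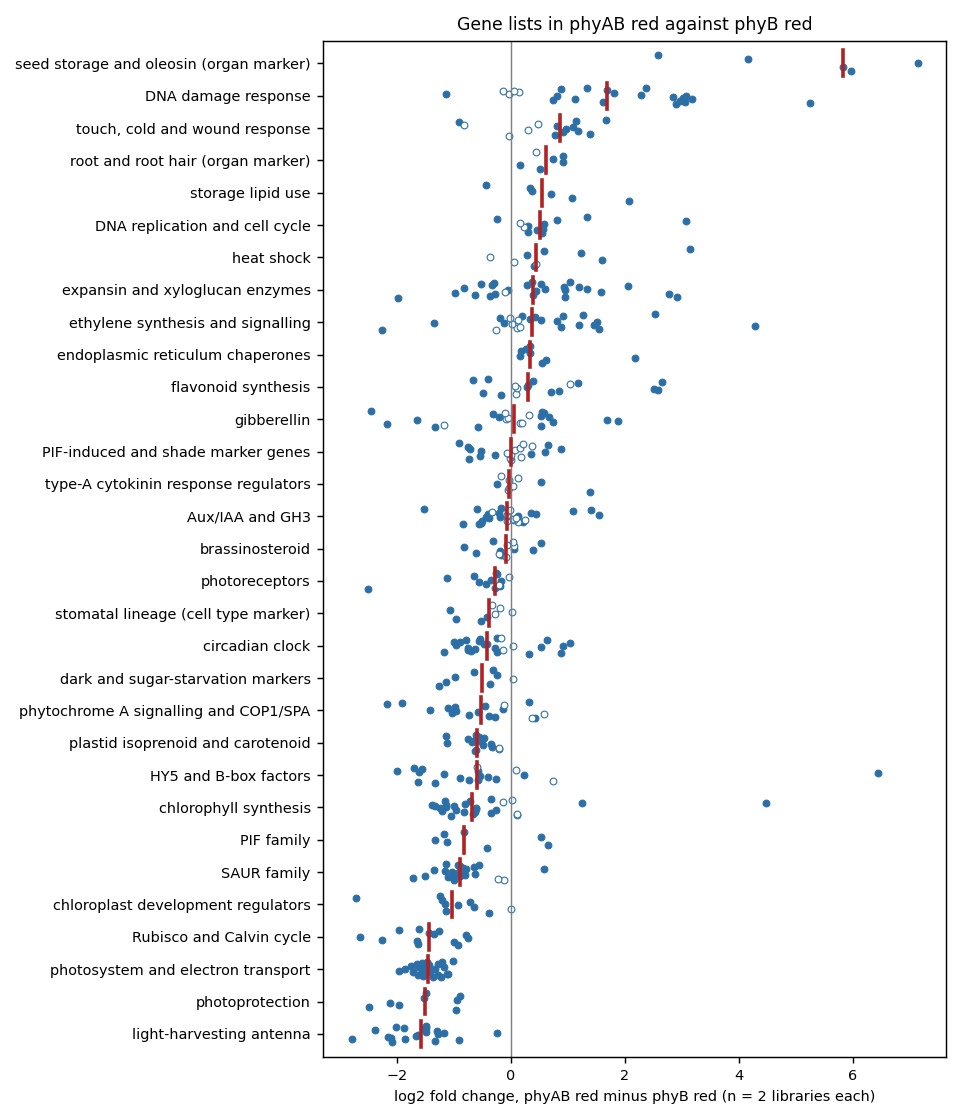
Each row is a gene list and each point a tested member, plotted by the log2 fold change of phyAB red over phyB red (2 libraries per group). Filled points passed an adjusted p of 0.05, open points did not, and the red bar is the median, from -1.59 for the antenna genes to 5.83 for the seed storage genes. The DNA damage list was added after values were seen.

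HY5 and the B-box factors that work with it were mostly lower in phyAB red, 14 of 19 against 2 higher (median -0.59). HY5, a bZIP factor that promotes light-type growth, stood at 52.5 and 46.9 CPM in phyB red against 19.1 and 19.9 CPM in phyAB red (log2 -1.34 ± 0.075, adjusted p = 1.92e-30), below even WT dark at 25.2 and 22.5 CPM. Its homologue HYH stood at 23.6 and 22.6 CPM in phyB red against 7.95 and 6.84 CPM in phyAB red (log2 -1.63 ± 0.12). BBX25, which restrains HY5 activity, was lower (7.41 and 9.78 against 34.3 and 33.9 CPM, log2 -2.01 ± 0.10). BBX24, of like function, stood at a higher level and was lower as well (149 and 149.7 against 453 and 458 CPM, log2 -1.61 ± 0.024). BBX22, which promotes light-type growth, followed (35 and 36.5 against 80 and 81.7 CPM, log2 -1.18 ± 0.056). BBX21, another promoter of light-type growth, was slightly higher (log2 0.23 ± 0.026).

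BBX23 was the other gene of the list that was higher. It had 2 reads over both phyB red libraries and 200 over both phyAB red libraries, a ratio of 97.9 (95% exact binomial interval 26.7 to 814, counting error only). The phyAB red libraries stood at 4.7 and 5.66 CPM. That level resembled WT dark (5.61 and 7.52 CPM), whereas phyB red and WT red (0.155 and 0.188 CPM) were both near 0.

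Of 18 genes of phytochrome A signalling and the COP1/SPA complex, 13 were lower and 2 higher (median -0.52). SPA1, a COP1 partner, stood at 216 and 216 CPM in phyB red against 79.6 and 80.5 CPM in phyAB red (log2 -1.43 ± 0.034, adjusted p = 4.36e-52). Its relatives SPA3 (log2 -1.11 ± 0.065), SPA4 (log2 -0.98 ± 0.096) and COP1 itself (log2 -0.46 ± 0.056) were lower by less. RUP1, which resets the UV-B receptor, differed most (10.2 and 9.6 against 44.8 and 45.2 CPM, log2 -2.18 ± 0.094), followed by its partner RUP2 (7.77 and 8.25 against 28.7 and 31.6 CPM, log2 -1.92 ± 0.11). PKS1, a phytochrome substrate, was lower (log2 -1.03 ± 0.06). FHY1, which carries phytochrome A into the nucleus, was higher (29.3 and 28.9 against 22.3 and 21.4 CPM, log2 0.42 ± 0.079). Its relative FHL did not pass (6.73 and 7.6 against 5.43 and 5.67 CPM, adjusted p = 0.0573). Among 13 photoreceptor genes 11 were lower and 0 higher. Next to PHYA, the blue light receptor PHOT2 differed most (85.8 and 84.7 against 185 and 185 CPM, log2 -1.12 ± 0.036). The blue light receptor CRY2 differed little (log2 -0.18 ± 0.025), and the UV-B receptor UVR8 (log2 -0.03 ± 0.047, adjusted p = 0.573) did not pass.

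Clock genes leaned the same way, with 16 of 25 lower (64.0%) and 6 higher (24.0%), beside 24.1% and 26.0% of all tested genes. Their median was -0.42. PRR9, a morning repressor, was lower (5.56 and 6.78 against 13.4 and 14 CPM, log2 -1.17 ± 0.13). LNK1, a light-responsive coactivator, was lower too (61.6 and 62.4 against 115 and 114 CPM, log2 -0.89 ± 0.043), as was GI, a scaffold protein of the evening (88.9 and 86.2 against 137 and 134 CPM, log2 -0.63 ± 0.038). The morning factor LHY was higher (84.9 and 87.3 against 47 and 46.8 CPM, log2 0.88 ± 0.05), and its partner CCA1 by less (log2 0.32 ± 0.05). RVE2, of the same MYB family, was the highest of the list by fold (159 and 157 against 78 and 76.8 CPM, log2 1.04 ± 0.037).

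**Figure D3:**
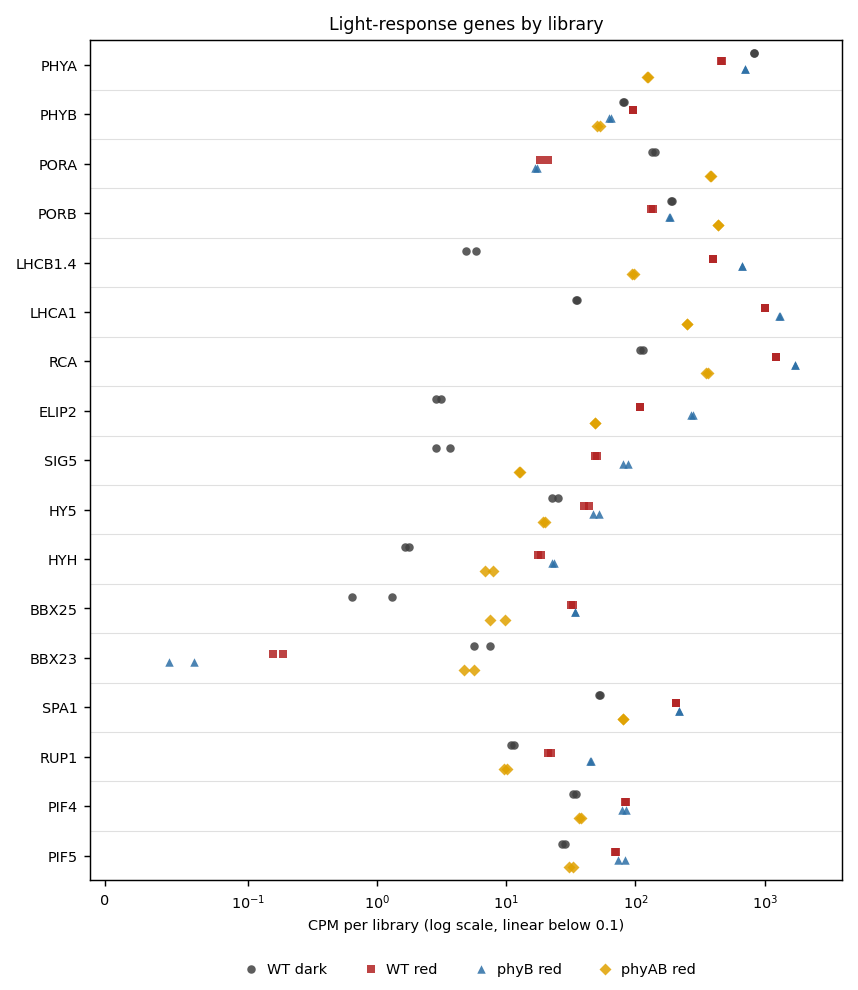
CPM of each library on a logarithmic axis (linear below 0.1) for phytochrome, photosynthesis and light-signalling genes, with 2 points per group. Both phyAB red libraries lie below both phyB red libraries for PHYA, LHCB1.4, RCA, SIG5 and HY5 and above them for PORA, PORB and BBX23.

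Of the 7 PIF genes, 5 were lower (71.4%) and 2 higher (28.6%) in phyAB red, beside 24.1% and 26.0% of all tested genes. PIF5 was the steepest of those that were lower (30.3 and 32.6 against 73.3 and 83 CPM, log2 -1.33 ± 0.059). PIF4 (37.7 and 36.7 against 84 and 78.4 CPM, log2 -1.12 ± 0.054) and the less abundant PIF7 (log2 -1.18 ± 0.16) followed. PIF8 (log2 -0.82 ± 0.092) and PIF1 (log2 -0.42 ± 0.062) were lower by less. PIF3, the founding member, was higher (60.7 and 64.9 against 40.2 and 39.7 CPM, log2 0.65 ± 0.058), as was PIF6 (log2 0.52 ± 0.12). Of 20 PIF-induced and shade marker genes, 4 were higher (20.0%) and 7 lower (35.0%), beside 26.0% and 24.1% of all tested genes, with a median of 0.00 and none past 2-fold. Without phyB red replicate 1 or without phyAB red replicate 1, 2 were higher.

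PIL1, a PIF target used as a shade marker, stood at 15.9 and 16.7 CPM in phyB red against 15.9 and 16.9 CPM in phyAB red (log2 -0.00 ± 0.098, adjusted p = 0.999). In both lines it lay between WT red (2.23 and 2.88 CPM) and WT dark (25.4 and 25.5 CPM). ATHB2, another such marker, stood at 23.5 and 26 CPM in phyB red against 25.3 and 23.9 CPM in phyAB red (log2 -0.02 ± 0.078, adjusted p = 0.863), also between WT red (15.1 and 15.7 CPM) and WT dark (51.6 and 52.7 CPM). A p that misses the threshold does not show that the lines act alike. XTH15, a xyloglucan enzyme, was higher in phyAB red (236 and 235 against 160.1 and 154 CPM, log2 0.59 ± 0.026). The sulfotransferase gene ST2A was higher as well (63.1 and 61.6 against 39.7 and 40 CPM, log2 0.65 ± 0.056). BEE1, a bHLH factor of brassinosteroid responses, was lower (21.2 and 18.7 against 37.8 and 37.8 CPM, log2 -0.91 ± 0.079), and so was YUC8, an enzyme of auxin synthesis (11.2 and 9.78 against 15.7 and 18.7 CPM, log2 -0.72 ± 0.11).

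Of 26 SAUR genes, small auxin-induced transcripts that promote cell expansion, 23 were lower in phyAB red and 1 higher (median -0.90). The single higher call was lost without any 1 of the 4 libraries. Their summed level was 549 and 560.1 CPM in phyB red against 299 and 290.0 CPM in phyAB red. In wild type the sum was 402 and 413 CPM in WT dark and 232 and 232 CPM in WT red. The double mutant thus lay between the wild type groups, and phyB red lay above both. SAUR14 was the steepest (12 and 14.3 against 44 and 42.2 CPM, log2 -1.72 ± 0.087), followed by SAUR16 (13.3 and 13.1 against 38.5 and 37 CPM, log2 -1.51 ± 0.088). In wild type, red light raised SAUR14 (log2 1.90) and lowered SAUR16 (log2 -1.47), so both were lower in the double mutant whatever their wild type response. SAUR19 to SAUR24, SAUR26 to SAUR29 and SAUR62 to SAUR68 lie in clusters of close copies, so reads of single genes may be split between them. Of 31 Aux/IAA and GH3 genes 7 were higher and 13 lower (median -0.08), which is 22.6% and 41.9% beside 26.0% and 24.1% of all tested genes. IAA2, an auxin repressor gene, was lower (162 and 164 against 292 and 293 CPM, log2 -0.85 ± 0.026). GH3.3, which conjugates auxin to amino acids, was higher (26.8 and 25 against 9.79 and 9.85 CPM, log2 1.4 ± 0.10), and its relative GH3.2 followed (25 and 24.5 against 12.2 and 11.2 CPM, log2 1.09 ± 0.099). IAA20, an Aux/IAA gene of low level, was higher by more (5.6 and 5.48 against 2 and 1.84 CPM, log2 1.54 ± 0.22).

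Ethylene genes were more often higher, 14 of 24 (58.3%) against 4 lower (16.7%), beside 26.0% and 24.1% of all tested genes. Their median was 0.38. ACS5, an enzyme of ethylene synthesis that is active in etiolated seedlings, stood at 6.55 and 7.46 CPM in phyB red against 19.7 and 21.9 CPM in phyAB red (log2 1.55 ± 0.12, adjusted p = 1.11e-22). ACS11, of the same family, was higher too (11.8 and 12.6 against 5.68 and 5.08 CPM, log2 1.19 ± 0.14). ACS9 had 3 reads in phyB red against 64 in phyAB red, a ratio of 20.9 (interval 6.83 to 104). ACO1, which catalyses the last step, was higher (9.44 and 9.19 against 3.06 and 3.69 CPM, log2 1.45 ± 0.17), whereas its relative ACO4 was lower (103 and 114 against 272 and 277 CPM, log2 -1.35 ± 0.031). The weakly expressed ACS4 was lower (0.226 and 0.354 against 1.43 and 1.35 CPM, log2 -2.27 ± 0.57). Enzymes of synthesis thus differed in both directions.

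Among signalling genes, the receptor gene ETR2 was higher (19.3 and 21 against 6.74 and 7.24 CPM, log2 1.51 ± 0.12). ERS1, another receptor, was higher by less (92.3 and 96.3 against 51.9 and 54.9 CPM, log2 0.81 ± 0.047). EBF2, an F-box protein that degrades the transcription factor EIN3, was higher (169 and 172 against 90.3 and 89.7 CPM, log2 0.92 ± 0.034), while EIN3 itself did not pass (adjusted p = 0.563). HLS1, which is needed for the apical hook, was higher as well (11.2 and 11.4 against 4.55 and 4.81 CPM, log2 1.26 ± 0.15).

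Cell-wall loosening genes changed in large numbers, 16 of 27 higher and 10 lower (median 0.38). The expansin gene EXPA9 was higher (95.8 and 93.4 against 13.2 and 14.1 CPM, log2 2.78 ± 0.075, adjusted p = 1.66e-56). So were EXPA11 (133 and 137 against 45.5 and 44.7 CPM, log2 1.58 ± 0.047) and the weaker EXPA2 (7.41 and 6.48 against 1.06 and 0.809 CPM, log2 2.92 ± 0.28). XTH19, a xyloglucan enzyme, was higher at a larger level (338 and 339 against 81.3 and 82.1 CPM, log2 2.05 ± 0.032), and XTH17 likewise (518 and 504 against 226 and 221 CPM, log2 1.2 ± 0.021). In wild type these 5 genes had log2 changes of -1.95, -1.56, -1.24, -1.62 and -0.93 with red light, opposite to their direction here. EXPA1, which red light raises in wild type (log2 2.56), was lower, at 259.9 and 264 CPM in phyB red against 65.1 and 67.2 CPM in phyAB red (log2 -1.99 ± 0.036, adjusted p = 6.28e-62). XTH6, outside the list, was lower too (1.49 and 0.943 against 14.6 and 14.1 CPM, log2 -3.51 ± 0.23). EXPA16 was raised by red light in wild type (4.76 and 5.59 CPM in WT dark and 23.8 and 23.4 CPM in WT red). It was low in both mutants and higher in phyAB red (8.76 and 9.19 against 4.86 and 4.45 CPM, log2 0.95 ± 0.15).

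Gibberellin genes were called in both directions, 8 of 22 higher (36.4%) and 7 lower (31.8%), beside 26.0% and 24.1% of all tested genes. Their median was 0.05, with 2 higher and 4 lower by at least 2-fold. GASA6, a gibberellin-regulated gene, was lower (80 and 77.4 against 432 and 437 CPM, log2 -2.46 ± 0.03). GA2OX1, which inactivates gibberellins, was lower (4.2 and 4.07 against 19.1 and 18.6 CPM, log2 -2.18 ± 0.14), and so was GA20OX1, which makes them (15 and 16.8 against 39 and 40.1 CPM, log2 -1.33 ± 0.083). GASA4, a relative of GASA6, was higher (687 and 690.1 against 477 and 466 CPM, log2 0.55 ± 0.017), as was RGL1, a DELLA repressor (29.3 and 29.2 against 18.8 and 18.3 CPM, log2 0.66 ± 0.082). Brassinosteroid genes were higher in 3 (23.1%) and lower in 5 (38.5%) of 13, beside the same 26.0% and 24.1% of all tested genes, and none changed 2-fold. Type-A cytokinin response regulators were higher in 2 (22.2%) and lower in 1 (11.1%) of 9, both below the shares of all tested genes. ARR3 (6.28 and 6.66 against 2.81 and 2.2 CPM, log2 1.39 ± 0.20) was the one past 2-fold. The lower call was lost without any 1 of the 4 libraries.

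**Figure D4:**
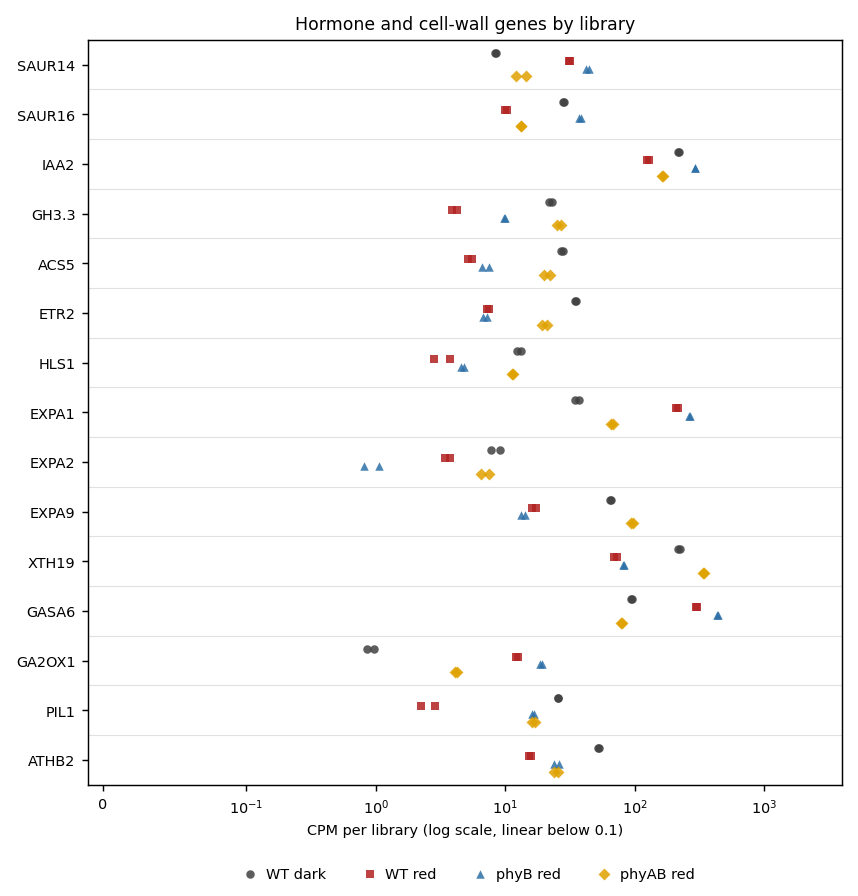
CPM of each library on a logarithmic axis (linear below 0.1) for auxin, ethylene, gibberellin and cell-wall genes, with 2 points per group. The phyAB red libraries lie above phyB red for GH3.3, ACS5, ETR2, EXPA9 and XTH19 and below it for SAUR14, EXPA1 and GASA6, while PIL1 and ATHB2 overlap.

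Flavonoid genes were more often higher. Of 17 tested, 9 were higher (52.9%) and 4 lower (23.5%), beside 26.0% and 24.1% of all tested genes. Their median was 0.30. CHS, chalcone synthase, the first enzyme, differed little, at 122 and 127 CPM in phyB red against 112 and 111 CPM in phyAB red (log2 -0.17 ± 0.038, adjusted p = 0.000103). F3H, of the same pathway, was lower (16.7 and 16.4 against 24.1 and 22.6 CPM, log2 -0.49 ± 0.093). The anthocyanin gene DFR was higher (1.67 and 1.89 against 0.312 and 0.27 CPM, log2 2.59 ± 0.55), and so was LDOX, the next step (4.88 and 4.36 against 0.811 and 0.809 CPM, log2 2.51 ± 0.32). PAP1, a MYB regulator of anthocyanin genes, was higher too (7.32 and 6.25 against 1.81 and 0.54 CPM, log2 2.65 ± 0.28, adjusted p = 6.67e-15). FLS1, flavonol synthase, was higher by less (14.3 and 13.4 against 6.61 and 8.54 CPM, log2 0.85 ± 0.13), with its regulator MYB111 (log2 1.17 ± 0.22). DFR, LDOX and PAP1 had few reads in phyB red, and all 3 exceeded WT red as well in both phyAB red libraries.

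A group of DNA damage response genes was far higher in phyAB red than in phyB red. The genes were listed after SMR7, PARP2 and TSO2 had been seen among the highest, so their counts describe and do not test. In the DNA damage response, the kinases ATM and ATR activate the transcription factor SOG1, which induces repair genes and inhibitors of the cell cycle. Of 23 tested genes, 18 were higher and 1 lower (median 1.68), beside a median of -0.05 in WT red against WT dark.

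SMR7 (AT3G27630), an inhibitor of cyclin-dependent kinases, stood at 0.624 and 0.989 CPM in phyB red against 33.8 and 30 CPM in phyAB red. The 4 wild type libraries lay between 1.4 and 2.13 CPM. It was 38.1-fold higher in phyAB red than in phyB red (log2 5.25 ± 0.27, adjusted p = 1.66e-43). The phyAB red libraries lay far above all others. Its relative SMR5 was higher too (6.6 and 6.72 against 0.748 and 0.989 CPM, log2 2.90 ± 0.30). PARP2, a poly(ADP-ribose) polymerase active at DNA breaks, stood at 4.8 and 5.04 CPM in phyB red against 45 and 43.9 CPM in phyAB red (log2 3.17 ± 0.13, adjusted p = 7.92e-44). BRCA1, a recombination gene, was higher (29.7 and 29.3 against 2.99 and 3.96 CPM, log2 3.06 ± 0.15). The X-ray-induced gene XRI1 (54.5 and 53.6 against 6.99 and 6.43 CPM, log2 3.02 ± 0.11) and the gamma-response gene GR1 (8.72 and 9.02 against 1.31 and 1.17 CPM, log2 2.84 ± 0.25) followed. All 3 reached levels in phyAB red above each of the 6 other libraries. TSO2, the small subunit of ribonucleotide reductase, which supplies DNA precursors, stood at 30.8 and 33.5 CPM in phyB red against 271 and 277 CPM in phyAB red (log2 3.08 ± 0.048, adjusted p = 2.22e-71). The wild type libraries lay between 32.8 and 36.2 CPM. Thymidine kinase TK1a followed (114 and 118 against 22.7 and 24.6 CPM, log2 2.28 ± 0.062).

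The regulators of the response did not pass the test. SOG1 stood at 20 and 20.4 CPM in phyB red against 21.3 and 20.3 CPM in phyAB red (log2 0.05 ± 0.087, adjusted p = 0.663), and neither ATM (adjusted p = 0.074) nor ATR (adjusted p = 0.456) passed, though ATM did without phyB red replicate 1 (adjusted p = 0.0277, edgeR). KU70, a DNA end-joining protein, was lower (12.7 and 10.9 against 25.6 and 27.1 CPM, log2 -1.15 ± 0.094, beside 26.3 to 28.0 CPM in wild type), while its partner KU80 did not pass (19.7 and 20.7 against 20.5 and 20.8 CPM, adjusted p = 0.756). Of 12 replication and cell cycle genes, 9 were higher (75.0%) and 1 lower (8.33%), beside 26.0% and 24.1% of all tested genes. Their median was 0.50, and TSO2, RNR1 and CYCB1;1, which are in both lists, were the largest of these. The lower call held only without phyAB red replicate 2, not without any of the other 3 libraries. The MCM helicase genes that passed differed by only 0.29 to 0.56, and the calls of MCM3 and MCM7 were lost with DESeq2 and without phyB red replicate 1 or phyAB red replicate 1. No damage was measured, and what set this group apart was not tested.

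The letters CTTNNNNNNNAAG, reported as the SOG1 binding sequence and its own reverse complement, were present in 9.14% of all upstream windows. They occurred in 8 of 23 windows of the DNA damage list (34.8%) and in 11.4% of windows of genes at least 2-fold higher, close to the 10.4% of those at least 2-fold lower (93 of 896). Since that list was chosen after values were seen, its share describes and does not test. Shares in other lists were 6 of 25 for the clock (24.0%), 3 of 13 for photoreceptors (23.1%), 2 of 8 for endoplasmic reticulum chaperones (25.0%) and 1 of 27 for the photosystem list (3.7%). The windows of SMR7 (chr3:10231568-10231817, minus strand) and PARP2 (chr4:1049516-1049765, plus strand) hold 1 match each, starting 43 and 96 bases before the annotated gene start, with all 13 letters of the match in capitals.
SMR7: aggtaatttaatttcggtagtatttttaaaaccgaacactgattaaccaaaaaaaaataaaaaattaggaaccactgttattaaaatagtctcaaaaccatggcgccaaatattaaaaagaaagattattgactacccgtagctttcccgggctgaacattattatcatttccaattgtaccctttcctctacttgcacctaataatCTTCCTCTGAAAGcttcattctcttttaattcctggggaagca
PARP2: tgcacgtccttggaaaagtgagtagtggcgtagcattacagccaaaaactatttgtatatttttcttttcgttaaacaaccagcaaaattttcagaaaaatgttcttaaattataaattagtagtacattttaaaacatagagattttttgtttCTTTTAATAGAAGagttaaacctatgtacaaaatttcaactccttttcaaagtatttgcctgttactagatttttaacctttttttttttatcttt

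Seed storage genes were also high in phyAB red and low in all 6 other libraries. All 5 tested members were higher (median 5.83, the fitted value of CRU2, which rests on 1 read in phyB red). The summed level of the 8 listed genes was 2.06 and 1.75 CPM in phyB red against 61.2 and 60.2 CPM in phyAB red and 2.23 to 3.01 CPM in wild type. CRU3 encodes a cruciferin, the main storage globulin of seeds, and stood at 0 and 0.315 CPM in phyB red against 27.3 and 26.3 CPM in phyAB red (log2 7.15 ± 0.57, adjusted p = 3.65e-41). CRA1, another cruciferin, stood at 0.187 and 0.45 CPM in phyB red against 21.5 and 22.2 CPM in phyAB red (log2 5.98 ± 0.42, adjusted p = 5.67e-37). CRU2 had 1 read in phyB red against 72 in phyAB red, and SESA5, an albumin gene outside the list, 2 and 173 (ratio 84.7, interval 23.1 to 705). The oleosin genes OLEO1 (2.03 and 2.95 against 0.249 and 0.045 CPM, log2 4.16 ± 0.76) and OLEO2 (7.73 and 6.01 against 1.62 and 0.809 CPM, log2 2.58 ± 0.27), coat proteins of seed oil bodies, were higher as well. SESA1, SESA3 and SESA4 had too few reads to be tested, with at most 0.678 CPM in any library. These genes mark seed and embryo tissue, and their part in the other results was not tested.

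CATGCA, searched on both strands, is the core of the RY element of seed promoters and was present in 7.88% of all windows. It occurred in 4 of 5 windows of the tested seed genes. Among genes at least 2-fold higher its share was 16.4% (166 of 1010), against 9.71% of those at least 2-fold lower (87 of 896). Within the higher genes it was 20.0% (44 of 220) of those lowered 2-fold by red light in wild type and 15.9% (72 of 454) of those not called there. Shares in other lists were 3 of 9 for heat shock (33.3%), 6 of 22 for gibberellin (27.3%) and 2 of 23 for ethylene (8.7%). Lists with mostly lower members varied as well. The motif was in 5 of 27 windows of the photosystem list (18.5%) and 3 of 19 for HY5 and B-box factors (15.8%). It was in 0 of 20 for the antenna list and 0 of 26 for chlorophyll synthesis. The motif is shown in capitals in the windows of CRA1 (chr5:17758337-17758586, minus strand), which has 2 matches, and CRU3 (chr4:14087306-14087555, plus strand), which has 1.
CRA1: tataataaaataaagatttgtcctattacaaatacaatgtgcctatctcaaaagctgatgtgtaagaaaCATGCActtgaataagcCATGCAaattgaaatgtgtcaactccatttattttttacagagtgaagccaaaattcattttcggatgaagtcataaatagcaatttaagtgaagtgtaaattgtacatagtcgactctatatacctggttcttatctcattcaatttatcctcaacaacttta
CRU3: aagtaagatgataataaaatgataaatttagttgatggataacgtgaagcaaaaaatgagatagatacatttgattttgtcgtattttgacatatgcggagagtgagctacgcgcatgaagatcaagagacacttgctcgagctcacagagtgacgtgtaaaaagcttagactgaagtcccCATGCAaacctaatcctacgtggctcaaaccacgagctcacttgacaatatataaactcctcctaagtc

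Genes for the use of seed oil were also mostly higher, 5 of 6 against 1 lower. ICL, isocitrate lyase of the glyoxylate cycle, stood at 91.2 and 93.3 CPM in phyB red against 388 and 392 CPM in phyAB red (log2 2.08 ± 0.029, adjusted p = 6.98e-67), above WT dark at 277 and 269 CPM. MLS, malate synthase, was higher (47.2 and 46.7 against 22.1 and 22.6 CPM, log2 1.07 ± 0.071), and SDP1, the lipase that opens the oil reserve, lower (101 and 96 against 136 and 133 CPM, log2 -0.44 ± 0.036). Of the root and root hair markers, 5 of 6 tested were higher (median 0.62) and NRT2.1 was near 0 throughout. Their sum was 11818 and 11882 CPM in phyB red against 17206 and 17102 CPM in phyAB red, beside 15119 and 15132 CPM in WT dark and 19104 and 19099 CPM in WT red. That sum rests on PYK10, a root-enriched beta-glucosidase (15857 and 15738 against 11068 and 11121 CPM, log2 0.51 ± 0.0071), and the aquaporin gene TIP2;3 (1249 and 1259 against 665 and 672 CPM, log2 0.91 ± 0.014). Of 8 tested stomatal lineage markers 4 were lower and 0 higher, or 1 to 2 lower when any 1 of the 4 libraries was left out, with summed levels of 25.4 and 26.2 CPM in phyB red against 20.4 and 18.4 CPM in phyAB red. How far such shifts in organ or cell type markers carry into the other gene groups was not tested.

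**Figure D5:**
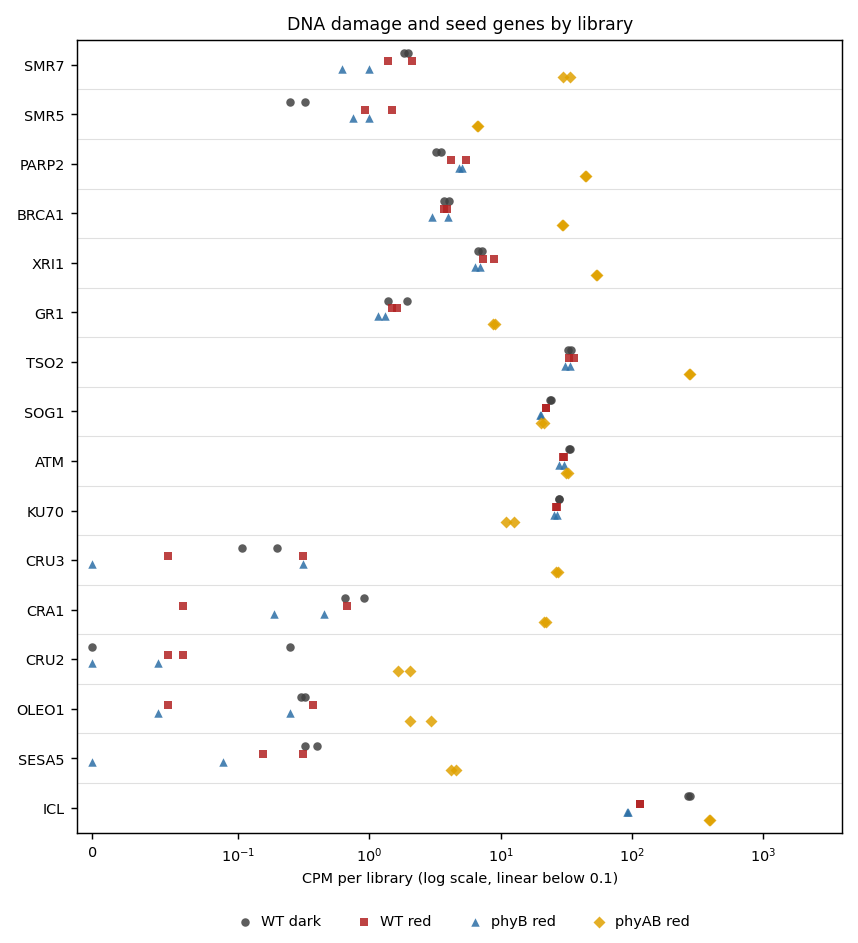
CPM of each library on a logarithmic axis (linear below 0.1) for DNA damage and seed genes, with 2 points per group. Both phyAB red libraries lie above the 6 other libraries for SMR7, SMR5, PARP2, BRCA1, XRI1, GR1, TSO2, CRU3, CRA1, CRU2, OLEO1, SESA5 and ICL, while SOG1 and ATM stay close together and KU70 is lower.

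Of 14 touch, cold and wound genes 9 were higher and 1 lower (median 0.86), and the lower call was lost without phyB red replicate 2 or phyAB red replicate 1. The counts over all 4 libraries were 64.3% higher and 7.14% lower, beside 26.0% and 24.1% of all tested genes. The summed level of the listed genes was 431 and 442 CPM in phyAB red and 252 to 283 CPM in the other libraries. ZAT10, a zinc finger repressor, was among those higher (20.9 and 21.1 against 7.92 and 8.09 CPM, log2 1.39 ± 0.11), with the defence factor WRKY33 (96.7 and 103 against 45.7 and 42.4 CPM, log2 1.18 ± 0.051). For ZAT10, phyAB red lay between WT red (16.7 and 16 CPM) and WT dark (23.6 and 23.1 CPM), with phyB red below both. For WRKY33, phyAB red lay above WT dark (42.1 and 46.2 CPM) and WT red (66.3 and 62.9 CPM). TCH3, a calmodulin-like protein, was higher by less (114 and 112 against 64.9 and 66.5 CPM, log2 0.78 ± 0.044), and TCH2 did not pass (adjusted p = 0.721). Of 9 heat shock genes 6 were higher (66.7%) and 0 lower, beside the same 26.0% and 24.1% of all tested genes. The summed level of the listed heat shock genes was 292 and 291 CPM in phyAB red and 227 and 224 CPM in phyB red. It was 305 and 312 CPM in WT red and 68.4 and 71.4 CPM in WT dark, so both mutants lay below WT red. HSP22 differed most (1.9 and 1.89 against 0.187 and 0.225 CPM, log2 3.14 ± 0.62), and HSP70 (191 and 190.0 against 154 and 159 CPM, log2 0.28 ± 0.03) little. All 8 chaperone genes of the endoplasmic reticulum were higher, with a median of only 0.34. BIP3 was the one past 2-fold, at 2.43 and 2.97 CPM in phyB red against 13.6 and 10.8 CPM in phyAB red (log2 2.17 ± 0.17, adjusted p = 1.18e-21). Here phyAB red lay near wild type (10.8 and 10.4 CPM in WT dark and 15.7 and 14.7 CPM in WT red) and phyB red below it. Dark and sugar-starvation markers were lower in 7 of 8 (median -0.51). ASN1, asparagine synthetase, which is induced in darkness, stood at 302 and 308 CPM in phyB red against 129 and 123 CPM in phyAB red (log2 -1.27 ± 0.027). The double mutant lay nearer to WT red (90.2 and 95 CPM) than to WT dark (485 and 478 CPM).

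By size alone, the other genes at the top of the ranking (mean of at least 5 CPM, groups not overlapping) were QRT1, AT2G18193 and GRF7. QRT1, a pectin methylesterase gene known for the separation of pollen grains, stood at 0.437 and 0.764 CPM in phyB red against 40.4 and 41.5 CPM in phyAB red (log2 6.02 ± 0.31, adjusted p = 6.52e-49), with less than 1 CPM in every wild type library. AT2G18193, a P-loop nucleoside triphosphate hydrolase gene, stood at 10 and 10.1 CPM in phyB red against 174 and 176 CPM in phyAB red (log2 4.12 ± 0.082, adjusted p = 6.27e-71). The wild type libraries stayed between 12.5 and 14.5 CPM. GRF7, a growth-regulating transcription factor, stood at 0.748 and 0.585 CPM in phyB red against 23 and 23.5 CPM in phyAB red (log2 5.14 ± 0.30, adjusted p = 2.28e-41). Its phyAB red values lay close to WT dark (23.1 and 20.1 CPM), while those of phyB red overlapped WT red (0.932 and 0.564 CPM). The cellulase gene CEL2 was higher too (20.6 and 18.2 against 1.62 and 2.43 CPM, log2 3.22 ± 0.19), beside 14.5 and 11.4 CPM in WT dark and 2.23 and 1.69 CPM in WT red. Among genes with the largest differences in CPM, LTP2, a lipid transfer protein, was 4.21-fold higher (2191 and 2229 against 528 and 521 CPM, log2 2.07 ± 0.014). BXL1, a beta-xylosidase of the cell wall, was 1.54-fold lower (2322 and 2316 against 3581 and 3556 CPM, log2 -0.62 ± 0.01). At the low end, MSRB6, a methionine sulfoxide reductase, stood at 146 and 155 CPM in phyB red against 18.9 and 14.7 CPM in phyAB red (log2 -3.14 ± 0.067, adjusted p = 5.08e-63).

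A few genes were nearly without reads in one line. AT3G05950, a cupin gene (5.26 and 7.41 CPM in WT dark and 5.39 and 4.33 CPM in WT red), had 447 reads in phyB red against 3 in phyAB red, a ratio of 152 (interval 51.8 to 741). The neighbours AT3G55900, an F-box gene, and AT3G55910 showed the reverse. AT3G55900 had 0 reads in phyB red against 195 in phyAB red, at least 63.6-fold higher when phyB red is set to a floor of 3 reads over the group, and AT3G55910 had 3 and 200 (ratio 65.3, interval 22.0 to 319). For both, phyAB red lay at the level of wild type (5.16 and 5.37 CPM in WT dark and 5.08 and 5.52 CPM in WT red for AT3G55900), so the departure was in phyB red. Whether counting used strand is not stated, and reads of these neighbours may not be separable. AT3G29633 had 283 reads in phyB red against 3 in phyAB red (ratio 96.4, interval 32.6 to 470) and at most 3 in either wild type group. AT2G01008 (1.76 and 2.12 against 25.1 and 25.9 CPM, log2 -3.73 ± 0.19) and AT3G01345 (1.22 and 1.24 against 12.7 and 14.9 CPM, log2 -3.49 ± 0.24) were likewise high in phyB red alone, with wild type libraries between 0.125 and 3.71 CPM. Whether such genes reflect the mutated phytochromes or other differences between the lines cannot be told apart, since each line is represented by 1 genotype. Genes changed at least 2-fold made up at least 8.08% of the tested genes of every chromosome, so they were not gathered on 1 chromosome. Shares over whole chromosomes cannot show gathering in shorter segments, which was not tested.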

How the data were processed

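RNA-seq of 8 seedling libraries was compared, 2 per group. The deposited files give reads per gene model (counts) and RPKM, which the authors computed from the same reads, per the file headers. The build is TAIR10, per the submitters' processing notes, and the aligner, the counting tool, strandedness and the treatment of multi-mapping reads are not stated in the sources at hand. Read counts over 27416 gene models were fitted with edgeR 4.0.16 (R 4.3.3) over all 8 libraries as 4 group means, with TMM normalization and filterByExpr at a minimum count of 10, which left 20716 genes. The quasi-likelihood test compared phyAB red with phyB red, with Benjamini-Hochberg adjustment at 0.05. SE was the Wald SE of that contrast with dispersion of at least 0.00011, never below counting error. RPKM served to check gene lengths. Tested on simulated data for this comparison and 20716 genes, the fit recovered 52% of 1.25-fold, 72% of 1.5-fold, 94% of 2-fold and 98% of 4-fold changes, and 7.6% of its calls were false. The simulation changed only a small share of genes, none of very low level, and took its spread from these same libraries. Its rates therefore do not carry over to the real comparison, where 50.1% of tested genes were called. Exact binomial intervals and the floor of 3 counts cover counting error only. Replicate numbers were not used to pair the libraries in the main fit. Alternatives were DESeq2 1.42.0, its size factors, other filters, the 4 mutant libraries alone, a replicate block, leaving out each library, a test against a 2-fold change, a 4-fold choice of red-responsive genes and a floor on dispersion, the last chosen after seeing the data. The members and gene lists were chosen with earlier results of these data known, and the DNA damage list and the genes nearly without reads after values were seen. Genes were named by a rule: PHYA and PHYB, the 12 largest changes by fold per direction (mean level of 5 CPM or more), the 5 largest by CPM, up to 4 per list and a set of known light-response genes. Other list members that the text names, such as those with the smallest change, were chosen after their values were seen.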

Additional observations from a re-analysis of the deposited data

How the results depend on the processing

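Counts of higher and lower genes (5389 and 4991) were within 1.5 times under every alternative run, for example 4098 and 3986 with DESeq2. Without 1 library they ranged from 4553 to 4852 higher and from 4205 to 4476 lower. At least 2-fold differences ranged from 994 to 1054 higher and from 908 to 944 lower. Red-raised genes ranged from 938 to 959 lower and from 181 to 200 higher, and red-lowered genes from 305 to 326 higher and from 49 to 60 lower. At a minimum count of 50, where fewer genes are tested, 656 genes were at least 2-fold higher and 741 lower. A test against a 2-fold change itself called 441 higher and 495 lower. Both turn the excess of higher over lower genes (1014 and 902) into an excess of lower genes. Choosing red-responsive genes at 4-fold, a smaller set, gave 380 lower and 61 higher of the raised and 92 higher and 10 lower of the lowered.

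Deviations of samples with the same replicate number were hardly correlated across genes (-0.004 to 0.027). Replicates differed little beyond counting error, so this cannot show whether they shared a culture or a day. With the replicate block, 5365 genes were higher and 4986 lower.

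Of 5531 alternative values of 506 named and listed genes, 5384 stayed on the same side of the threshold, 120 lost the call, 27 gained it and 0 called genes reversed direction. GLK1 and LHCB4.3 were among those that lost the call, as were the stomatal genes SPCH, FAMA, TMM and POLAR. FHL and PORC gained it under some settings. Of 682 alternative counts of list members, 653 were within 1.5 times. Depth limits genes near 1 CPM, such as DFR, OLEO1 and HSP22, whose SE exceeded 0.5, and with n = 2 the tests cannot tell technical from biological spread.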
